A study of Mus musculus with 3 samples.

Results

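The matrix proteoglycans described here are 10 genes chosen by name, of 47480 gene symbols in the deposited tables. They are 5 small leucine-rich proteoglycans (Dcn, Lum, Bgn, Fmod and Ogn), 2 large matrix proteoglycans (Vcan and Hspg2) and 3 cell-surface heparan sulphate proteoglycans (Sdc1, Sdc4 and Gpc1). All 10 were found in every table, and all passed the filter on low counts that kept 12710 genes. The samples were 3 untreated mammary tumours of the strain labelled FVB-MMTV-Neu, which form 1 group, called here tumours 1, 2 and 3 in order of deposition. In this model the mouse mammary tumour virus promoter, active mainly in mammary epithelium, drives the rat Neu (Erbb2) oncogene, so the transgene is expected in epithelium and not in the stroma. According to the labels' protocols the tumours were grafted orthotopically into syngeneic mice, grew to a diameter of 5 mm and were then followed for 7 days with no agent given, whereas the design text speaks of tumours from MMTV-Neu mice. Age, sex and the number of donor mice are not given in the labels, so the spread between tumours may include technical spread. With no second group there is no comparison of conditions, and no p-value is given.

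Proteoglycans are core proteins that carry long sulphated sugar chains, the glycosaminoglycans. Small leucine-rich proteoglycans bind collagen fibrils and are made chiefly by fibroblasts, versican binds hyaluronan, and perlecan is a heparan sulphate proteoglycan of basement membranes. Syndecans span the plasma membrane and glypicans are held to it by a lipid anchor, and their heparan sulphate chains bind growth factors and matrix.

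The libraries held 47449153, 11388769 and 17147394 estimated counts in tumours 1, 2 and 3. Levels below are CPM, the usual depth-normalised count unit, here with TMM-scaled library totals, and intervals in brackets are exact Poisson 95% intervals that cover counting error only. Tumour 1 was sequenced in lane 1 and the others in lane 5 of the same run, so lane and tumour 1 cannot be told apart, and the comparison of tumours 2 and 3 is the within-lane one. Tumour 1 stood apart in general, with a biological coefficient of variation of 63.5% over the 3 tumours and 32.7% over tumours 2 and 3. Epithelial markers were present in all tumours (9 of 9 past the filter, summed 1798 to 2724 CPM), as were fibroblast markers (13 of 14, 1555 to 2053 CPM). Skeletal muscle markers summed to 5.65, 46433 and 19946 CPM over all 7 listed genes (4 past the filter), and the ribosomal RNA symbol Rn18s-rs5 took 0.20, 7.87 and 6.68% of counts in tumours 1, 2 and 3.

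Sequences of gene starts are shown for the members farthest apart between tumours. Hspg2 and Sdc1 departed in opposite directions, and Fmod had the widest range of the small leucine-rich genes. The windows come from RefSeq on GRCm38.p6, run from 250 bases before to 50 bases after the gene start and are written 5′ to 3′ on the gene's strand. Windows were matched for 7 of the 10 members, which leaves Dcn, Lum and Gpc1. Capitals mark the GC box GGGCGG, searched on both strands.
Hspg2 (chr4:137468553-137468852, plus strand): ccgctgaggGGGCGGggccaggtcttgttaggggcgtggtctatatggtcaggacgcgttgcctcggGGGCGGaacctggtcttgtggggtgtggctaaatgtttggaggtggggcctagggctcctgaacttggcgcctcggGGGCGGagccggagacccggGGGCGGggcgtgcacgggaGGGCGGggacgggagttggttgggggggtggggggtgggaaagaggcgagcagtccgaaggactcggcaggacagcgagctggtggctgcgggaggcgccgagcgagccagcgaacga
Sdc1 (chr12:8771146-8771445, plus strand): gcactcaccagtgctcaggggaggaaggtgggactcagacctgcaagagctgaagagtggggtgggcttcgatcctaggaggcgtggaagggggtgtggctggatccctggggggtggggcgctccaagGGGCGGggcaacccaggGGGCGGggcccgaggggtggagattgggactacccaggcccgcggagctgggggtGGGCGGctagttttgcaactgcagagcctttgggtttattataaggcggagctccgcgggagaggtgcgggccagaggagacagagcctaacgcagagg
Fmod (chr1:134037004-134037303, plus strand): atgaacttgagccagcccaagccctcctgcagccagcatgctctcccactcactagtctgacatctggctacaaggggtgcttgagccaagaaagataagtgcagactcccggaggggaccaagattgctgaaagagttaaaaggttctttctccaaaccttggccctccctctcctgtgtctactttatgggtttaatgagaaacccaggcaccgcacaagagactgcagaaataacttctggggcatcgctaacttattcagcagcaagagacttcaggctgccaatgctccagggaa

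The Hspg2 window held 5 GC boxes and a GC content of 70.3%, the Sdc1 window 3 boxes and 66.3%, and the Fmod window no box and 51.0%. Among the other members, Sdc4 had 4 boxes, Bgn 3, Vcan 2 and Ogn 0. At least 1 GC box stood in 35.7% of all 32851 windows of the same length, and at least 4 in 5.49%. The letters TATAAA, searched on both strands and not overlapping any GC box, were found among the members only in the Ogn window (2 matches), compared with 13.6% of all windows. The 2 matches are on opposite strands and overlap each other in a single stretch near the window's 5′ end, far before the gene start. The 2 members with opposite differences, Hspg2 and Sdc1, thus both had GC-rich windows with several GC boxes.

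Perlecan and syndecan-1 were the only members that met a 4-fold rule in any tumour. A tumour is said to stand apart for a gene whose level there exceeded, or fell short of, each of the remaining tumours by 4-fold or more (a log2 CPM difference of 2). Tumour 1 had 1 of 10 members above (Sdc1), against 6.05% of all genes, and 1 below (Hspg2), against 8.21%. In a list of 10 genes, 1 is close to these shares. Fmod had a wider range than Sdc1 (8.45-fold against 7.09-fold), but no tumour was 4-fold from both others for it. Tumour 2 had 1 member above (Hspg2; 0.252% of all genes) and 0 below (0.59%), and tumour 3 had 0 above (0.0787%) and 0 below (0.0787%). At 2-fold, 7 of 10 members were below both others in tumour 1 (Dcn, Bgn, Fmod, Ogn, Hspg2, Sdc4 and Gpc1), where 20.7% of all genes were, and 1 was above, where 22.1% were. In tumour 2 Fmod and Hspg2 were at least 2-fold above both others (5.43% of genes) and 0 members below (7.14%), and in tumour 3 there were 0 above (0.865%) and 0 below (1.35%). The members' median difference of tumour 1 from the mean of the others was −1.42 on the log2 scale, against 0.11 over all genes, and it was 0.89 in tumour 2 (all genes −0.09) and 0.31 in tumour 3 (all genes 0.01). With library totals alone these medians were −0.58, 0.19 and 0.17, and without tumour 1 the tumour 2 median was 0.33 and that of tumour 3 −0.33. The members' count at 2-fold depends on the scaling. With library totals alone, which move the median gene up by 0.84 in tumour 1, only Fmod and Hspg2 (2 of 10) stayed below in tumour 1, against 10.5% of genes, and 1 was above, against 40.4%. Relative to the median gene the members' median difference was −1.53 with TMM and −1.53 with library totals. These 2 values must coincide, because scaling shifts all genes of a library alike, so they do not test the scaling. By definition as many genes lie above the median gene as below it. Of the members 9 of 10 lay below that gene, Sdc1 being the exception and Vcan, at −0.03, nearly level with it.

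**Figure D1:**
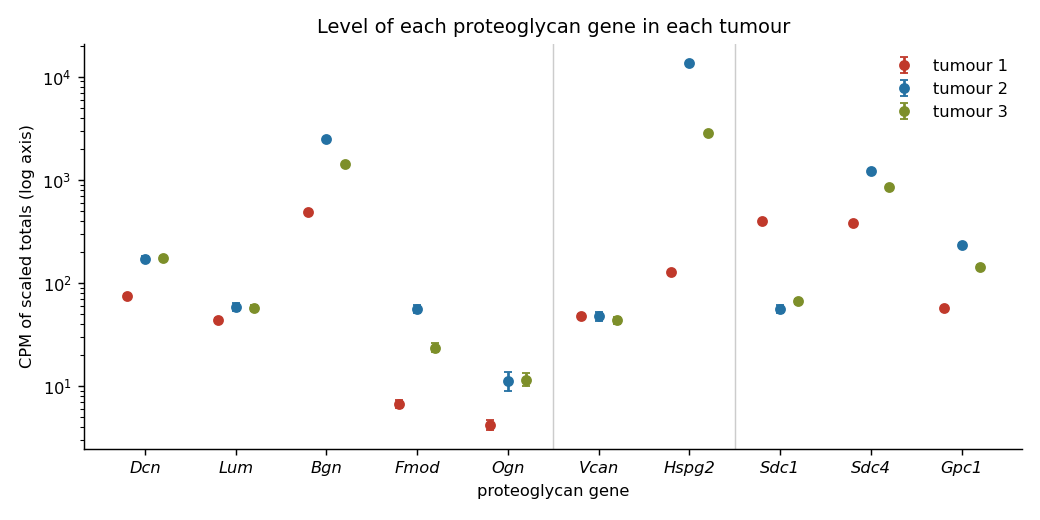
CPM of each proteoglycan gene (log axis) in the 3 tumours; points are single libraries, bars are exact Poisson 95% intervals, and grey lines part the small leucine-rich, large and surface genes. Hspg2 spans 129 to 13715 CPM, Vcan lies between 43.3 and 47.8 CPM, and Sdc1 alone is more than 4-fold higher in tumour 1 than in both others.

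Among the small leucine-rich proteoglycans, Bgn led in every tumour. Bgn encodes biglycan, which carries chondroitin or dermatan sulphate chains and can signal through Toll-like receptors once released from the matrix. The gene lies on chromosome X (73483602 to 73495933, GRCm38, GENCODE M21, as for all positions below). Bgn was at 486 CPM in tumour 1 (481 to 491), 2499 CPM in tumour 2 (2465 to 2534) and 1433 CPM in tumour 3 (1415 to 1452). Tumour 1 was thus lowest by 5.14-fold against tumour 2 and 2.95-fold against tumour 3, and the mean was 1473 ± 1007 CPM (SD, n = 3). Within the shared lane, tumour 2 was 1.74-fold above tumour 3.

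Dcn, the gene of decorin, a collagen-binding proteoglycan that also binds TGF-beta, lies on chromosome 10 (97479609 to 97518143). Its levels in tumours 1, 2 and 3 were 75.1, 172 and 174 CPM, with a mean of 140.4 ± 56.5 CPM (SD, n = 3). Tumours 2 and 3 hardly differed, with intervals of 163 to 181 and 168 to 181 CPM that overlap, and tumour 1 was lower. Ogn, which encodes osteoglycin (mimecan) and lies on chromosome 13 (49608046 to 49624501), was the lowest of the class at 4.16, 11.2 and 11.5 CPM. These rest on 288, 90 and 181 counts, and the intervals of tumours 2 and 3 overlap again (8.99 to 13.7 and 9.89 to 13.3 CPM). Dcn and Ogn were the most alike of all pairs of members, with a Euclidean distance of 0.19 between their log2 CPM, each centred on its mean over the 3 tumours. Ogn lies wholly inside the span of the oppositely oriented gene Cenpp, which was at 4.26, 0.249 and 1.40 CPM. Only gene spans were compared, strandedness is not given, and whether the 2 genes share reads was not tested.

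Lum, the gene of lumican, a keratan sulphate proteoglycan that spaces collagen fibrils, was one of the evenest members. Located on chromosome 10 (97565128 to 97572703), it was at 43.7, 58.2 and 56.7 CPM, or 52.9 ± 7.94 CPM (SD, n = 3), a coefficient of variation of 15.01%. Tumour 1 was again lowest, but by only 1.33-fold and 1.30-fold. With library totals alone the sign turned, to 0.45 above the others on the log2 scale against 0.95 for the median gene. Relative to that gene, a measure that scaling leaves all but unchanged by construction, Lum was lower (−0.50 with TMM, −0.49 with library totals).

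Fmod encodes fibromodulin, a collagen-binding relative of lumican abundant in tendon and cartilage, and lies on chromosome 1 (134037254 to 134048277). It was at 6.65 CPM in tumour 1 (6.06 to 7.29), 56.2 CPM in tumour 2 (51.1 to 61.6) and 23.5 CPM in tumour 3 (21.1 to 26.0). The 3 intervals do not overlap, and the highest and lowest tumours were 8.45-fold apart. Set against Lum within each tumour, the Fmod to Lum ratio of CPM was 0.152, 0.966 and 0.414. Tendon and cartilage markers summed to 72.8, 172 and 151 CPM (5 of 8 past the filter), and 1 of the 5, the tendon factor gene Scx, was 4-fold or more lower in tumour 1, at 8.85, 62.5 and 40.5 CPM. The others were mixed. Sox9, a cartilage factor gene, was at 44.9, 72.8 and 63.6 CPM, Col2a1, the cartilage collagen, at 2.59, 6.34 and 19.7 CPM, Comp at 4.57, 15.3 and 16.6 CPM and Runx2 at 9.87, 9.94 and 8.52 CPM. Of the markers that did not pass the filter, the tendon factor gene Mkx had 135, 8 and 2 counts. Tnmd, a tendon marker, had 10, 36 and 31 counts (0.145, 4.47 and 1.97 CPM), in the same order of tumours as Fmod. Ibsp, a bone marker, had 1, 0 and 0 counts. The part of these markers in the Fmod values was not tested.

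The large proteoglycans held both the widest and the evenest member. Hspg2 encodes perlecan and lies on chromosome 4 (137468769 to 137570630), with 97 exons in its longest transcript of 14187 bases. It was at 129 CPM in tumour 1 (126 to 131), 13715 CPM in tumour 2 (13634 to 13796) and 2840 CPM in tumour 3 (2814 to 2867). Tumour 2 lay 107-fold above tumour 1 and 4.83-fold above tumour 3, and the mean ± SD of 5561 ± 7190 CPM (n = 3) has an SD larger than the mean. In tumour 2 the gene took 0.969% of all counts and ranked 8 among all genes by CPM, compared with rank 38 in tumour 3 and rank 949 in tumour 1. Its range of log2 CPM was the 28th widest of the 12710 genes.

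The Hspg2 call in tumour 1 held under every setting tried, whereas that in tumour 2 rested on the margin to tumour 3. The log2 difference of tumours 2 and 3 was 2.27 with TMM, 1.90 with library totals and 1.66 after a trend with GC content and transcript length was removed, on either side of the 4-fold line. Perlecan's transcript is GC-rich (60.9%). The profiles nearest to Hspg2 over the 3 tumours were those of Gm42418, a predicted gene known to take up reads of ribosomal RNA (276, 29540 and 7386 CPM; distance 0.22), Il3ra, an interleukin-3 receptor gene (6.43, 587 and 152 CPM; 0.24), and Hmcn2, the gene of a large extracellular matrix protein (4.99, 445 and 119 CPM; 0.27). Rn18s-rs5 was at 1370, 111410 and 72784 CPM, 81.3-fold higher in tumour 2 than in tumour 1. Gm26917, a further symbol taken here as ribosomal, was at 88.3, 32516 and 5010 CPM, 368-fold higher in tumour 2 than in tumour 1. Gm42418 and Gm26917 thus differed more between tumours 2 and 3 than Rn18s-rs5 did. Skeletal muscle markers moved the same way between tumour 1 and the others, with 7 of 7 detected, among them Ckm, the muscle creatine kinase, at 0.477, 32750 and 11606 CPM. Ckm, Atp2a1, Mylpf and Pygm passed the filter and were 4-fold or more lower in tumour 1, while Acta1, Tnnt3 and Myh4 were kept out by their low counts there (14, 25 and 8). The part of ribosomal RNA and of muscle in the Hspg2 values was not tested. Estimates per gene do not show where in the gene the reads lay, so whether all of them came from perlecan mRNA was not tested either. Of 3 protein-coding neighbours on each side, chosen after their values were seen, Usp48 (48.5, 16.3 and 19.4 CPM) and Rap1gap (41.7, 5.47 and 3.37 CPM) were highest in tumour 1, and no library had a count for Cela3a, Cela3b, 1700013G24Rik or Ldlrad2.

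Vcan encodes versican, a large chondroitin sulphate proteoglycan that binds hyaluronan through its amino-terminal part, and lies on chromosome 13 (89655312 to 89742509). It was at 47.8 CPM in tumour 1 (46.2 to 49.5), 47.6 CPM in tumour 2 (43.0 to 52.6) and 43.3 CPM in tumour 3 (40.2 to 46.7), or 46.3 ± 2.53 CPM (SD, n = 3). All 3 intervals overlap, and only 1.24% of genes had a range of log2 CPM as small or smaller. That evenness holds on the TMM scale. With library totals alone tumour 1 was higher by 0.92 on the log2 scale, against 0.95 for the median gene, and once the trend with GC content and length was removed the difference was −0.68. Hspg2 and Vcan therefore differed in their CPM ratio by tumour, at 2.69, 288 and 65.5. The antisense gene Gm4117, which overlaps Vcan, was at 0.651, 3.98 and 1.08 CPM.

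The surface proteoglycans went in both directions. Sdc1, on chromosome 12 (8771323 to 8793715), encodes syndecan-1, the main syndecan of epithelia and of plasma cells. It was at 397 CPM in tumour 1 (393 to 402), 56.1 CPM in tumour 2 (51.0 to 61.5) and 66.2 CPM in tumour 3 (62.3 to 70.4). Tumour 1 was 7.09-fold and 6.001-fold higher, and the intervals of tumours 2 and 3 do not overlap but lie within 1.18-fold of each other. The difference of tumour 1 from the others was 2.70 on the log2 scale and 2.96 without the GC and length trend.

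Markers of cells that make syndecan-1 differed too. Of the basal and myoepithelial markers, 5 of 7 stood 4-fold or more higher in tumour 1 than in either other (Krt5, Krt14, Krt17, Trp63 and Cnn1), and their list summed to 540, 404 and 266 CPM with Acta2, a smooth muscle actin also made outside epithelium, at 263, 370 and 245 CPM. Krt5 was at 64.4, 1.62 and 1.46 CPM. Of 9 epithelial markers, the tight junction gene Cldn4 alone was 4-fold or more higher in tumour 1, at 170.5 against 10.7 and 20.1 CPM, and Krt8, a luminal keratin, was at 407, 734 and 1038 CPM. Plasma cell transcripts were scarce, with Jchain at 7, 0 and 4 counts, Tnfrsf17 at 5, 0 and 3 counts, and Prdm1 at 3.31, 0.994 and 1.08 CPM, while Xbp1, which is not confined to plasma cells, was at 135, 104 and 86.4 CPM. The part of these markers in the Sdc1 values was not tested. Bulk RNA cannot tell fewer cells of a type from less RNA per cell, here and for every level given.

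Sdc4 encodes syndecan-4, a widely expressed syndecan of focal adhesions, and lies on chromosome 2 (164424247 to 164443887). In contrast to Sdc1 it was lowest in tumour 1, at 382 CPM (377 to 386), with 1219 CPM in tumour 2 (1195 to 1243) and 849 CPM in tumour 3 (835 to 864), or 817 ± 419 CPM (SD, n = 3). The CPM ratio of Sdc4 to Sdc1 was 0.960 in tumour 1, 21.7 in tumour 2 and 12.8 in tumour 3. Gpc1, the gene of glypican-1 on chromosome 1 (92831645 to 92860779), was at 57.1, 235 and 143 CPM, or 145 ± 88.9 CPM (SD, n = 3), lowest in tumour 1 by 4.11-fold and 2.51-fold. After removal of the GC and length trend the difference of Gpc1 in tumour 1 went from −1.68 to −1.16 on the log2 scale, and it was then no longer at least 2-fold below both others. Gpc1 was close in profile to Bgn (distance 0.24) and to Sdc4 (0.26), all ordered tumour 2, tumour 3, tumour 1. That order was held by 6 of 10 members (with Lum, Fmod and Hspg2) and by 29.6% of all genes.

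**Figure D2:**
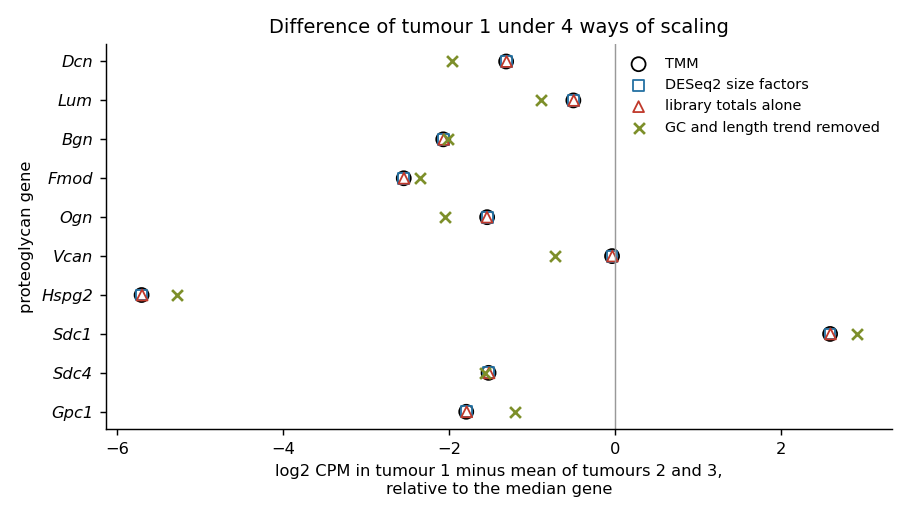
Difference of tumour 1 from the mean of tumours 2 and 3 in log2 CPM, minus that of the median gene, for each proteoglycan gene under 3 scalings and after removal of the GC and length trend. The 3 scalings coincide by construction, since the median gene is subtracted; the trend moves Vcan from −0.03 to −0.72 and leaves Hspg2 (−5.28) lowest and Sdc1 (2.92) highest.

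Compared per length, on the scale of CPM per kilobase of the longest annotated transcript, the order of mean levels was Bgn (552 ± 378), Hspg2 (391.998 ± 507), Sdc4 (332 ± 171), Sdc1 (54.9 ± 61.5), Gpc1 (34.8 ± 21.3), Dcn (29.9 ± 12.0), Lum (21.6 ± 3.24), Fmod (9.22 ± 8.07), Vcan (3.72 ± 0.203) and Ogn (3.49 ± 1.62), each with SD and n = 3. Neighbours in that order differed by less than the larger of their SDs, except Sdc4 from Sdc1 and Lum from Fmod. The order depends on the length used. Per kilobase of the median annotated transcript length, means were 967 for Bgn, 502 for Sdc4, 392.3 for Hspg2, 203 for Sdc1, 199.6 for Gpc1, 79.9 for Dcn, 21.6 for Lum, 20.4 for Vcan, 15.7 for Fmod and 3.49 for Ogn, so that Sdc4 passed Hspg2 and Vcan passed Fmod. The longest Dcn transcript keeps an intron. The longest Bgn transcript has 1 exon and is not a coding one (2666 bases, against 2419 for the longest coding one). On the longest coding Dcn transcript of 1758 bases, a length chosen after the data were seen, Dcn was at 42.7, 97.7 and 99.1 CPM per kilobase. That was above Lum at 17.9, 23.8 and 23.2. Bgn, Sdc4 and Sdc1 led in tumour 1 with 182, 155 and 126 CPM per kilobase, Hspg2, Bgn and Sdc4 in tumour 2 with 967, 937 and 496, and Bgn, Sdc4 and Hspg2 in tumour 3 with 538, 346 and 200.2. The lead of Hspg2 over Bgn in tumour 2 is lost on coding lengths, where Bgn was at 1033.

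The make-up of the proteoglycan transcripts therefore changed from tumour to tumour. Of the summed CPM per kilobase of the 10 genes, the surface members held 55.9, 22.3 and 33.0% in tumours 1, 2 and 3. The small leucine-rich members held 41.7, 39.8 and 50.2%, nearly all of it Bgn (34.6, 36.6 and 44.3%). Hspg2 held 1.72, 37.8 and 16.5%, and Sdc1 held 23.9, 0.693 and 1.73%. These shares rest on the longest transcripts, describe RNA and say nothing of protein or sugar chains.

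**Figure D3:**
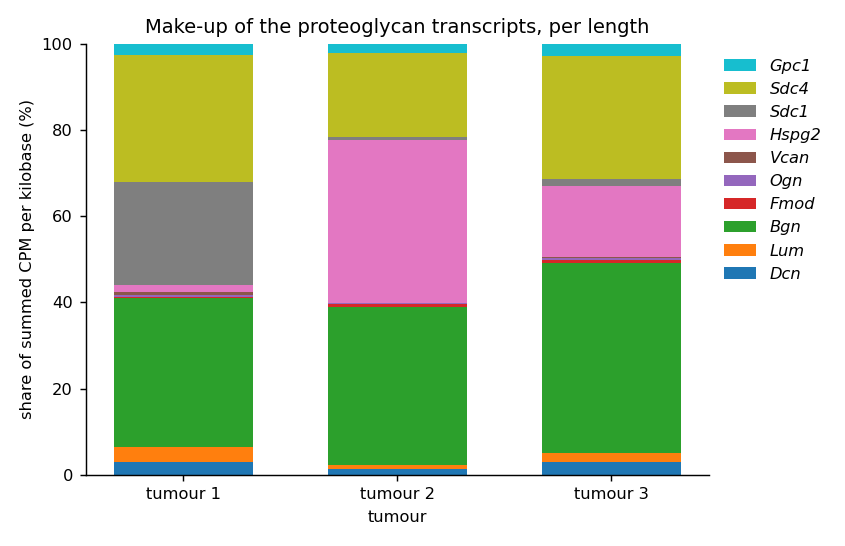
Share (%) of the summed CPM per kilobase of the 10 proteoglycan genes taken by each gene, 1 bar per tumour, 1 library per bar. Bgn takes 34.6 to 44.3%, Hspg2 rises from 1.72% in tumour 1 to 37.8% in tumour 2, and Sdc1 is visible mainly in tumour 1 (23.9%).

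Each member was also set beside cell type markers of the same tumour, as its log2 CPM minus the mean log2 CPM of a marker list. Against 13 fibroblast markers, Lum was steadiest, at −0.22, −0.59 and −0.24, and Dcn was at 0.56, 0.98 and 1.38. The SD of Lum there, 0.21, was hardly smaller than its 0.23 without a reference. Fibroblast markers themselves had 0 of 13 genes apart at 4-fold in tumour 1, as had the small leucine-rich members, but 5 of 13 were 2-fold or more lower there, with a median difference of −0.69. Sparc, the highest in level of the 13, was not among those 5 and was highest in tumour 1, at 823, 475 and 495 CPM. Pi16, the widest in range, was among them, at 19.96, 214 and 62.5 CPM. Against 8 endothelial markers, Gpc1 (1.45, 1.48 and 1.79), Sdc4 (4.19, 3.85 and 4.36) and Bgn (4.54, 4.89 and 5.11) had SDs of 0.19, 0.26 and 0.29 over the tumours. Their SDs without that reference were 1.04, 0.86 and 1.20. The endothelial list summed to 202, 1390 and 527 CPM, with Pecam1, the gene of CD31, at 56.4, 775 and 231 CPM and Emcn at 15.7, 141 and 71.2 CPM. Pecam1 alone gave most of the sum in tumour 2. These were the 2 of 8 markers 4-fold or more lower in tumour 1, and 4 of 8 were 2-fold or more lower. Cdh5 (41.2, 72.5 and 46.3 CPM), Kdr (19.2, 33.6 and 15.6 CPM) and Tek (5.87, 6.46 and 5.59 CPM) differed less, and Kdr and Tek were lowest in tumour 3. Hspg2 had SDs over the tumours of 3.04 against fibroblast, 3.83 against epithelial and 2.45 against endothelial markers. Those of Sdc1 were 1.93, 1.24 and 2.51, beside 1.57 without a reference, so it was steadier against epithelial markers than alone. Pericyte markers summed to 256, 3723 and 1976 CPM, most of it in tumours 2 and 3 from Des, the gene of desmin, which muscle also makes (11.2, 3185 and 1701 CPM). Myh11 (7.53, 4.60 and 1.78 CPM) and Kcnj8 (4.89, 2.73 and 2.80 CPM) were highest in tumour 1. Macrophage markers summed to 934, 3347 and 2201 CPM, with most of tumours 2 and 3 from the complement gene C1qa (161, 2426 and 1369 CPM), whereas Lyz2, the gene of lysozyme, was highest in tumour 1 (478, 222 and 264 CPM). Adipocyte markers summed to 417, 289.8 and 230.3 CPM. Fabp4, a fatty acid carrier, was at 215, 144 and 120.1 CPM and Adipoq, the gene of adiponectin, at 24.3, 3.60 and 3.69 CPM. Cidec was instead highest in tumour 2, at 24.9, 41.5 and 17.7 CPM. These are descriptions over 3 libraries, and the part of any cell type was not tested.

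**Figure D4:**
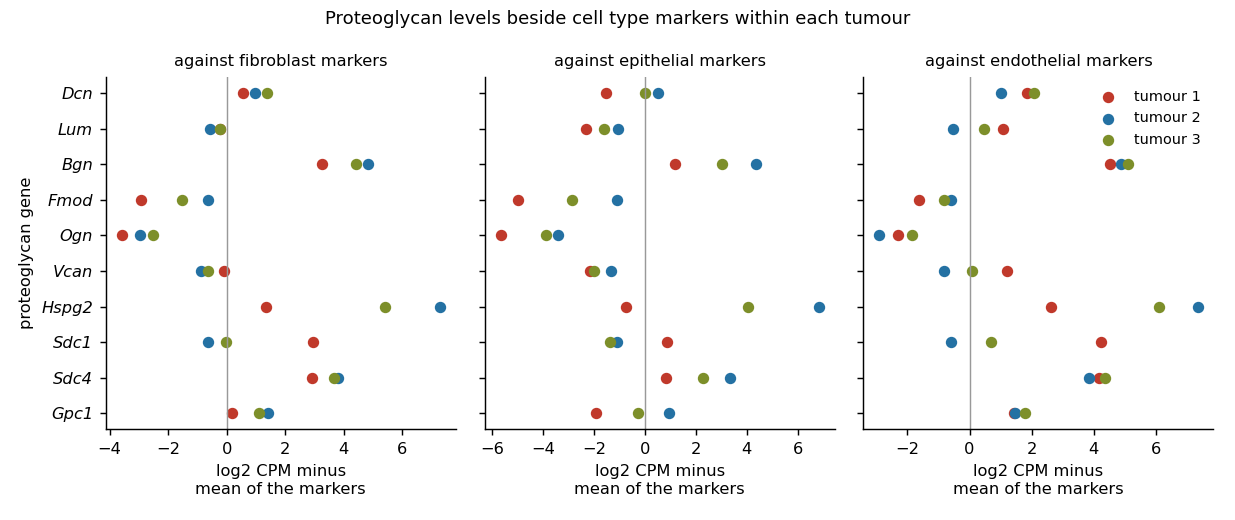
Log2 CPM of each proteoglycan gene minus the mean log2 CPM of fibroblast, epithelial or endothelial markers, 1 point per tumour. Points of Gpc1, Sdc4 and Bgn lie close together against endothelial markers (SD 0.19 to 0.29), and those of Hspg2 are spread in all panels. Those of Lum lie close together against fibroblast markers (SD 0.21, and 0.23 without a reference).

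Several members sit in chromosomal clusters of the same family, and neighbours in a cluster did not share a level. On chromosome 10, Lum lies 47.0 kb from Dcn, followed by Kera and Epyc, genes of keratocan and epiphycan, which had 0, 5 and 7 and 6, 0 and 0 counts in tumours 1, 2 and 3. On chromosome 13, Ecm2, Aspn (asporin), Omd (osteomodulin) and Ogn follow each other with gaps of 11.7 to 15.2 kb. There Ecm2 was at 1.99, 38.2 and 12.1 CPM, Aspn at 16.1, 4.97 and 11.8 CPM and Omd at 14, 2 and 6 counts, so that Ecm2 was lowest and Aspn highest in tumour 1. Prelp, 116 kb from Fmod on chromosome 1, was at 17.9, 34.2 and 13.3 CPM, without the low value of Fmod in tumour 1. Hapln1, a link protein gene 43.7 kb from Vcan, was at 0 counts throughout, and a count of 0 permits a level of at most 0.0434, 0.373 and 0.191 CPM.

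Other genes of proteoglycan biology were taken from fixed lists of core proteins, sugar chain enzymes, proteases and partners. Of 131 such genes 101 passed the filter, with 12 at least 4-fold above and 8 below both others in tumour 1 (11.9 and 7.92%, beside 6.05 and 8.21% of all genes). In tumour 2 there was 1 above, Adamts15, a versican-cutting protease, at 34.0, 352 and 84.0 CPM, and 0 below, and in tumour 3 there were none in either direction. Of 6 other small leucine-rich genes past the filter, Ecm2 and Podn (4.15, 49.3 and 21.5 CPM) were below in tumour 1, and the list's median difference was −0.57.

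Of 8 other surface genes, Gpc4, the gene of glypican-4, was above in tumour 1 at 59.1 against 11.1 and 11.6 CPM, and Sdcbp, the gene of syntenin, which binds syndecan tails, was highest at 155, 315 and 234 CPM. Of 5 basement membrane genes, Agrn, which encodes agrin, was above in tumour 1 at 254 against 24.4 and 35.8 CPM, opposite to Hspg2, as was Nid2 at 14.1 against 3.48 and 1.27 CPM. Col18a1, a further basement membrane heparan sulphate proteoglycan, was at 488, 269 and 389 CPM. Among 4 secreted or granule proteoglycans past the filter, Srgn, which encodes serglycin of blood cells, was even at 23.8, 25.7 and 32.3 CPM, and Esm1, of endothelium, was at 2.26, 9.07 and 4.70 CPM.

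Enzymes of the sugar chains went both ways in tumour 1. Of 9 linkage region genes, B3gat3, which adds the last sugar of the linker, was below at 50.5 against 627 and 343 CPM, and the xylose phosphatase gene Pxylp1 was above at 44.3 against 5.47 and 8.90 CPM. Of 14 heparan sulphate genes, the sulphotransferase genes Ndst1 (66.6 against 8.70 and 6.61 CPM) and Hs6st1 (90.1 against 5.59 and 9.09 CPM) were above and 0 were below, while the polymerase gene Ext2 was at 67.6, 115 and 77.5 CPM. Of 16 chondroitin and dermatan sulphate genes, the polymerising enzymes were unlike each other, with Chsy1 (151 against 12.2 and 26.9 CPM) and Chpf2 (79.0 against 12.3 and 8.58 CPM) above and Chpf (56.5 against 1177 and 404 CPM) below. The lists' median differences in tumour 1 were −0.19, 0.48 and 0.70, compared with 0.11 over all genes.

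Hyaluronan genes, which supply the ligand of versican, had 11 of 18 members past the filter. Hyal1, a hyaluronidase, was above in tumour 1 at 20.8 against 2.36 and 1.65 CPM, whereas Hyal2 was at 122, 262 and 210 CPM. The synthase gene Has1 (0.593, 4.23 and 2.80 CPM) and Tnfaip6 (0.969, 8.82 and 5.53 CPM), whose product modifies hyaluronan, were below. Has2, a synthase gene that did not meet the 4-fold rule, went the other way from Has1, at 13.2, 3.48 and 5.53 CPM. Of 13 proteases that cut core proteins, Adamts9 was above in tumour 1 (12.2 against 2.73 and 2.80 CPM) and Mmp9 below (13.3 against 176 and 74.9 CPM), and Mmp14 was highest at 238, 905 and 483.5 CPM. Of 15 fibril partners, Col12a1 and Tgfb2 were above in tumour 1, at 146 against 26.0 and 21.9 CPM and at 27.9 against 2.11 and 3.56 CPM, and Eln, the gene of elastin, was below at 45.1 against 351 and 201 CPM. Beside Col1a1 at 1576, 3695 and 1625 CPM, the CPM ratio of Bgn to Col1a1 was 0.308, 0.676 and 0.882, and that of Dcn was 0.0477, 0.0465 and 0.107.

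**Figure D5:**
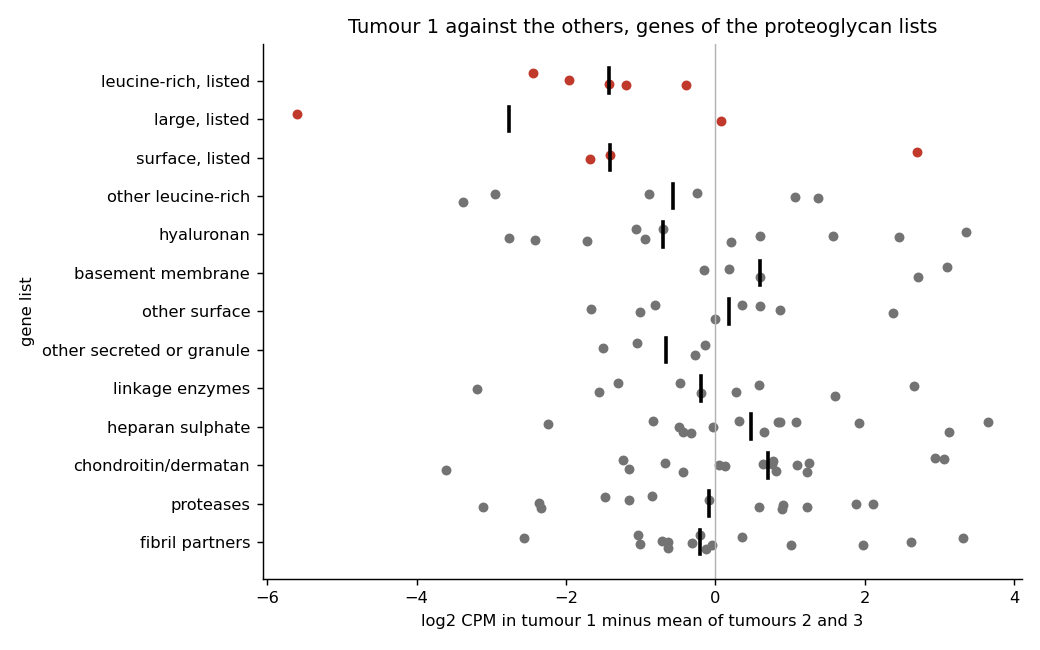
Log2 CPM in tumour 1 minus the mean of tumours 2 and 3, 1 point per gene past the filter, by list; black bars are medians, red points the 10 proteoglycan genes and points are spread vertically for sight only. Small leucine-rich members have their median at −1.43 and surface members at −1.41, while the heparan sulphate (0.48) and chondroitin and dermatan sulphate (0.70) enzyme lists lie above 0 with members on both sides.

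The genes nearest in profile to the highest per-length member of each class were found over all genes past the filter and 3 tumours. For Bgn they were Tnfsf12, Itm2c and Grem1 (distances 0.0037, 0.031 and 0.032), of 280 genes within 0.25, and for Sdc4 Mrvi1, Slc44a2 and Stat6 (0.010, 0.013 and 0.013), of 409. Only 2 genes lay as near to Hspg2. With 3 points per profile many genes are close by arithmetic alone.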

How the data were processed

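RNA-seq was done on 3 mammary tumours, 1 library each, from total RNA with an mRNA kit and paired-end reads of 50 bases, per the labels' protocols. Each deposited table lists, per the file headers, an estimated count of reads for every gene symbol. Salmon, STAR, SAMtools, Picard and build mm10 are named in the submitters' processing notes. Not given in the sources used here: versions, annotation release, how genes were summed, strandedness.

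Estimated counts were rounded. Genes were kept by filterByExpr of edgeR 4.0.16 (R 4.3.3; minimum count 10, minimum total 15; with 1 group, a gene must pass in every library), and totals of kept genes were scaled by TMM (factors 1.48, 0.722 and 0.936). Log2 CPM used a prior count of 2. No test of conditions was possible. The 4-fold rule was tried on simulated counts with 8-fold changes in tumour 1. Their spread was smaller than the 63.5% seen over the 3 tumours, so the simulation does not show how reliable calls in tumour 1 are. GENCODE M21 on GRCm38 (mm10) gave positions, lengths and GC content (97.1% of kept genes). The trend with GC content and log length was a quadratic fit per tumour. DESeq2 1.42.0 gave alternative size factors. Named genes were all members, the highest and widest gene of each list, list genes 4-fold apart where at most 5, family neighbours and nearest profiles. Some further markers and neighbours were named after their values were seen. Members and lists were chosen with earlier results of these data known.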

Additional observations from a re-analysis of the deposited data

How the results depend on the processing

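The counts of members 4-fold apart and their median differences were recomputed with DESeq2 size factors, library totals, no filter, a mean CPM of at least 1, prior counts of 0.5 and 10, totals without muscle genes and Rn18s-rs5, the GC and length trend removed, and each tumour left out; medians also without Hspg2, which was chosen after seeing the data. For tumour 1, the count above went from 1 to 0 at 8-fold and the count below from 1 to 7 at 2-fold. For tumour 2, the count above of 1 became 0 with library totals, 0 without the GC and length trend, 0 at 8-fold and 2 at 2-fold. Leaving out a tumour gave 1 to 4 members below in tumour 1 and 1 to 4 above in tumour 2 (both 4 without tumour 3, when Bgn, Fmod and Gpc1 join Hspg2), 0 to 1 below in tumour 2, 0 to 1 above in tumour 3 and 1 below in tumour 3. With a tumour left out, the median difference was −1.54 to −1.27 in tumour 1, 0.33 to 1.54 in tumour 2 and −0.33 (without tumour 1) to 1.27 (without tumour 2) in tumour 3, where the sign turns. Library totals gave −0.58, 0.19 and 0.17. Of the alternative counts 60 stayed within 1.5 times the main count, 8 were higher and 4 lower. Main counts were only 0 or 1, and a 0 that stayed 0 was included in the 60, so the tally says little of stability. Levels per kilobase with the median transcript length are given with the order of levels. No paired analysis was possible because there is 1 group. The shallowest library limits the low members most: Ogn had 90 counts in tumour 2.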
